A study of Mus musculus with 8 samples.

Results

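The 10 genes described here encode ubiquitin ligases, and adaptors of such ligases, that set how strongly T cells answer their antigen receptor and innate signals: the Pellino ligases *Peli1* and *Peli2*, *Traf6*, the Cbl ligases *Cbl* and *Cblb*, *Itch*, *Nedd4* and their adaptor *Ndfip1*, and the membrane-bound or membrane-associated RING ligases *Rnf125* and *Rnf128* (GRAIL). They were picked by name, with earlier results of these data known, and matched to the gene symbols of the count tables of WT and *Trim28* KO Th17 cells. Of the 10, 9 were among the 13704 genes with at least 1 read in either library. Th17 cells, the helper T cells that make IL-17, were grown over 3 days from naive CD4+ T cells of C57BL/6 mice. According to the methods, plate-bound anti-CD3 and anti-CD28 stimulated the naive cells. The medium held IL-6 (20 ng/ml) and TGF-β (0.5 ng/ml), and the cells were given anti-CD3 again before RNA extraction. The WT library came from mice labelled wild type, and the KO library from mice labelled TRIM28fl/flxCD4cre, in which Cre made under the *Cd4* promoter removes *Trim28* already in developing T cells, well before Th17 culture. The ages of the mice, the number of mice behind each culture and whether the WT mice carried Cre or floxed alleles are not given in the sources used here. There was 1 library per genotype, so no difference below has a replicate check.

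Ubiquitin ligases attach the small protein ubiquitin to chosen proteins, which sends them to the proteasome, to the lysosome or, with other chain types, into signalling complexes. In T cells Cbl-b, Itch and GRAIL are known for holding back cells that meet antigen without costimulation, a state called anergy, and loss of Cbl-b or Itch in mice leads to autoimmunity. Peli1 and Traf6 work downstream of IL-1 and Toll-like receptors and are also known as brakes on T-cell activation.

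The WT library held 6650066 uniquely assigned reads and the KO library 6185108. *Trim28*, the deleted gene, had 4485 WT and 180 KO reads, so the KO library kept 4.32% of the WT level. Of the 5 helper T-cell markers looked up, 4 had reads in each library, and the 5 summed to 2242 WT and 2259 KO CPM (reads per 1000000 reads of the library), whereas the summed Th17 markers stood at 1139 and 328 CPM. Markers of other cell types summed to 9.02 CPM or less per type in the WT library and to 6.79 CPM or less in the KO library, with *Lyz2*, *Csf1r*, *Ncr1* and *Klrb1c* at 0 in both. In bulk libraries such as these, fewer cells that express a gene and less RNA per cell cannot be told apart.

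Most of these ligase genes had fewer reads in the KO library, which is the smaller library. Scaled to library totals, 7 of the 8 members tested were lower there, against 5591 of all 10881 genes tested. A gene was called when it changed at least 2-fold with an adjusted p under 0.05, from an exact binomial test of its reads with Benjamini-Hochberg adjustment over the 10881 genes with at least 10 reads in all. That test compares these 2 libraries, not the genotypes. *Peli2*, *Cbl*, *Nedd4* and *Rnf125* were called lower, which is 4 of the 8 members tested, and 0 members were called higher. Over all genes tested 5.53% were called lower and 2.57% higher. At least 2-fold lower, with no test, were the same 4 members and 7.94% of all genes tested. *Peli2* passed the minimum of 10 reads through the WT library alone, while 7 members had at least 10 reads in each library. The median log2 fold change (KO over WT, 0.5 added to each count) of the 8 tested members was -0.96, against -0.02 over all genes tested. *Peli2* and *Rnf125* are also among genes that the study picked for display from these same libraries. All members were chosen with earlier results of these data known. Neither their calls nor their median are therefore independent evidence of a direction for the set.

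Levels can be set side by side between genes only per length, here as reads per kilobase of the longest annotated transcript per 1000000 reads (RPKM). How unique assignment was decided is not stated, and genes may have lost unlike shares of their reads at that step. The order below is therefore one of assigned reads, and its intervals cover counting error only. The adaptor gene *Ndfip1* had the highest RPKM of the 10 in each library, 96.3 in WT and 104.7 in KO. *Cblb* came next with 72.9 and 38.8 RPKM, and then *Peli1* with 44.4 and 26.7. In the WT library the order went on with *Nedd4* at 35.8 RPKM, *Traf6* at 27.7, *Rnf125* at 26.2, *Cbl* at 10.4 and *Peli2* at 4.33. *Traf6* and *Rnf125* did not differ there beyond their counting intervals (26.1 to 29.4 and 23.0 to 29.7 RPKM). In the KO library *Traf6* stood above *Nedd4*, at 19.2 against 14.3 RPKM, and it was *Nedd4* and *Rnf125* (13.0 RPKM) whose intervals overlapped. *Itch* lay under 0.1 RPKM in both libraries. The level of every member and its counting error are drawn in the plot of RPKM by gene.

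**Figure D1:**
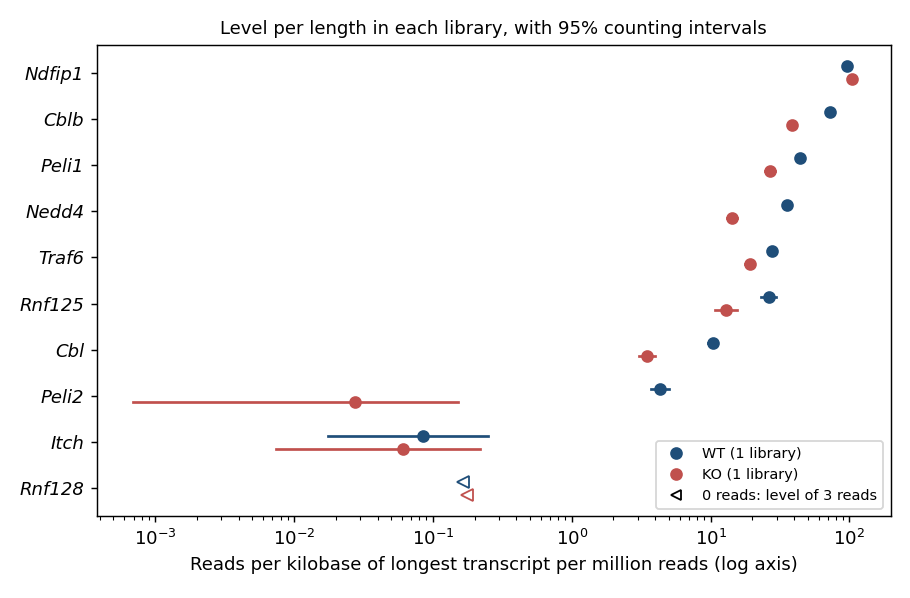
Reads per kilobase of longest transcript per 1000000 reads (log axis) for each of the 10 genes in the WT and the KO library, with exact 95% Poisson intervals as bars and open triangles at the level of 3 reads for a gene with 0 reads. *Ndfip1* sits highest in both libraries at 96.3 and 104.7 RPKM, and *Peli2* drops from 4.33 to 0.0274 RPKM.

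*Peli2*, a RING ligase that modifies IRAK kinases below IL-1 and Toll-like receptors, showed the lowest log2 fold change of the set. The WT library had 170 *Peli2* reads and the KO library 1. The KO level was 158-fold lower, with a counting interval from 28.0-fold to 6281-fold that is wide because it rests on 1 KO read, and the log2 fold change was -6.72. *Peli2* lies on the plus strand of chromosome 14 of GRCm38 from 48120823 to 48281575 (GENCODE M21), and its longest transcript has 6 exons and 5900 bases. A transcribed pseudogene on the same strand, *Gm6498*, shares 869 bases of annotated *Peli2* exons (9.56% of them), and none of the 50-base windows of the longest *Peli2* transcript occurs in a transcript of another gene.

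Its paralog *Peli1*, which in T cells is known to limit activation by marking c-Rel for degradation, stayed within 2-fold. It had 1093 WT and 612 KO reads. Its log2 fold change was -0.73, with a 95% counting interval of -0.88 to -0.59. The KO library kept 60.2% of the WT level, less than WT beyond counting error and not called. *Peli1* lies on chromosome 11 from 21091291 to 21150323, and its longest transcript has 3703 bases. Of the reads of both genes together, *Peli2* supplied 13.5% in the WT library (exact Clopper-Pearson 95% interval 11.6% to 15.5%) and 0.163% in the KO library (0.00413% to 0.906%). These shares are of reads, not of molecules per length, and the intervals do not overlap between the libraries. The third Pellino gene, *Peli3*, had 6 and 2 reads, too few to be tested.

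*Traf6*, the ligase that Pellino proteins and IRAK kinases work with and that builds signalling chains toward NF-κB, moved less. It had 1137 WT and 733 KO reads. Its log2 fold change of -0.53 had an interval of -0.66 to -0.39, and it was not called. *Traf6* lies on chromosome 2 from 101678429 to 101701669 in 8 exons of a transcript of 6169 bases, and no other annotated gene overlaps it. Of these 3 genes, *Peli1* and *Traf6* were lower in the KO library by less than 2-fold and *Peli2* by far more.

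*Cbl*, which marks activated receptors and kinases for breakdown, had 783 WT and 245 KO reads. The KO library kept 33.6% of the WT level, equal to -1.57 on the log2 scale with an interval of -1.78 to -1.36, and *Cbl* was called lower. The gene lies on the minus strand of chromosome 9 from 44142976 to 44234049 and has the longest transcript of the set, 11372 bases in 16 exons. Of the 50-base windows of that transcript, 2.38% also occur in transcripts of other genes.

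*Cblb*, the Cbl gene best known for T-cell tolerance, had the higher RPKM of the pair in both libraries. It had 3221 WT and 1594 KO reads, which is -0.91 on the log2 scale with an interval of -0.998 to -0.82, just short of the 2-fold limit, so that it was not called. The KO library kept 53.2% of the WT level of *Cblb*. Of the pair's reads, *Cblb* supplied 80.4% in WT (79.2% to 81.7%) and 86.7% in KO (85.0% to 88.2%), and these intervals do not overlap. The share of *Cblb* was thus higher in the KO library although both genes had fewer reads there. *Cblb* lies on chromosome 16 from 52031225 to 52208048, in 18 exons of a transcript of 6648 bases, with no 50-base window found in another gene.

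*Nedd4*, a HECT ligase known in T cells for degrading Cbl-b, had 1309 WT and 486 KO reads. Its KO level was 39.9% of WT, or -1.32 on the log2 scale with an interval of -1.48 to -1.17, and it was called lower. *Nedd4* lies on chromosome 9 from 72662346 to 72749852, on the same chromosome as *Cbl* and far from it, with 29 exons in its longest transcript.

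*Ndfip1*, the membrane adaptor that binds and activates HECT ligases of the Nedd4 and Itch kind, was the exception among the tested members. It had 2796 WT and 2827 KO reads, and its log2 fold change was 0.12, its interval going from 0.04 to 0.20. The KO level was 108.7% of WT, higher past the counting error and not called. Of the windows of the *Ndfip1* transcript, 3.20% occur in other genes.

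*Itch*, the HECT ligase whose loss causes the itchy mouse, had 3 WT and 2 KO reads and was not tested. *Rnf128*, the anergy gene that encodes GRAIL, was listed in neither table under this symbol or an older one. A count of 0 at these depths allows up to 0.451 CPM in WT and 0.485 CPM in KO. Genes that T cells are known to use, such as *Vav1* and *Cul4b*, were also listed in neither table. The counts are of uniquely assigned reads, and how unique assignment was decided for reads that fit several transcripts is not stated. The low counts of *Itch* and *Rnf128* are therefore given only as listed, and no comparison between the libraries was made for them.

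*Rnf125*, also known as TRAC-1, a membrane-associated RING ligase reported to act in T-cell activation and to mark RIG-I for degradation, was called lower close to the limit. It had 245 WT and 113 KO reads, and the KO library kept 49.6% of the WT level. On the log2 scale this is -1.01, with an interval of -1.35 to -0.68, so that counting error alone spans the 2-fold limit. It was not called with TMM scaling (log2 fold change -0.98), with DESeq2 size factors (-0.998) or with 5 added to each count (-0.98). *Rnf125* lies on chromosome 18 from 20944625 to 20983862. Of the 50-base windows of its transcript of 1406 bases, 15.6% also occur in the gene model *Gm2996*. Reads from those windows may be missing from the uniquely assigned count.

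**Figure D2:**
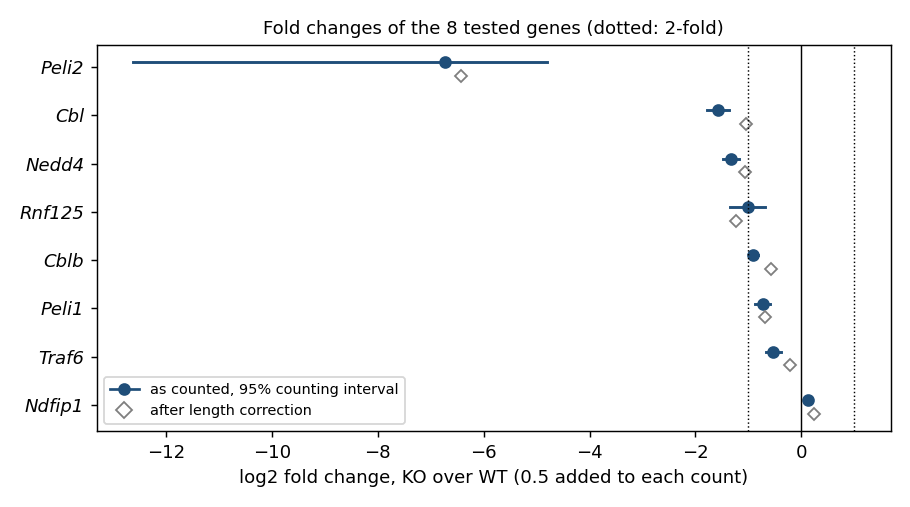
log2 fold change (KO over WT, 0.5 added to each count) of the 8 tested genes, as counted with exact 95% counting intervals (circles and bars) and after correction for transcript length (diamonds), with dotted lines at 2-fold. *Peli2* lies at -6.72, *Ndfip1* alone lies above 0, and the correction moves *Cbl* from -1.57 to -1.04.

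Transcript length moved with these results. Fold changes over all tested genes fell with length, from a median log2 fold change of 0.29 in the shortest of 10 length groups of equal size to -0.44 in the longest. The 8 tested members were long, their longest transcripts having a median length of 5700 bases against 3318 over all genes tested. After a loess curve against length was taken off, the log2 fold change was -6.43 for *Peli2*, -1.04 for *Cbl*, -1.06 for *Nedd4* and -1.23 for *Rnf125*. All 4 were still called, *Cbl* and *Nedd4* only just past the 2-fold limit, against 4.32% of all genes called lower after the same correction. No counting intervals were worked out for the corrected values. *Cblb* moved to -0.57, *Peli1* to -0.68, *Traf6* to -0.22 and *Ndfip1* to 0.24, and none of these was called. The short *Rnf125* transcript moved away from 0 and the long *Cbl* transcript toward it.

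Set against genes of the same length group, *Peli2* was among the 3 of 1079 genes, itself included, with a log2 fold change at or below its own. For *Rnf125* that count was 48 of 1079, for *Cbl* 67 of 1080 and for *Nedd4* 80 of 1079. Of the members not called, it was 129 of 1079 for *Peli1*, 176 of 1079 for *Cblb*, 337 of 1079 for *Traf6* and 742 of 1079 for *Ndfip1*. *Peli1* and *Cblb* thus also lay in the lower part of their length groups. The count for *Peli2* rests on 1 KO read, and that gene met the minimum of reads through the WT library alone. All members were chosen with earlier results known, so these counts only describe their place and are not independent evidence. The part of length, and of the lower Th17 marker level, in the members' values was not tested.

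**Figure D3:**
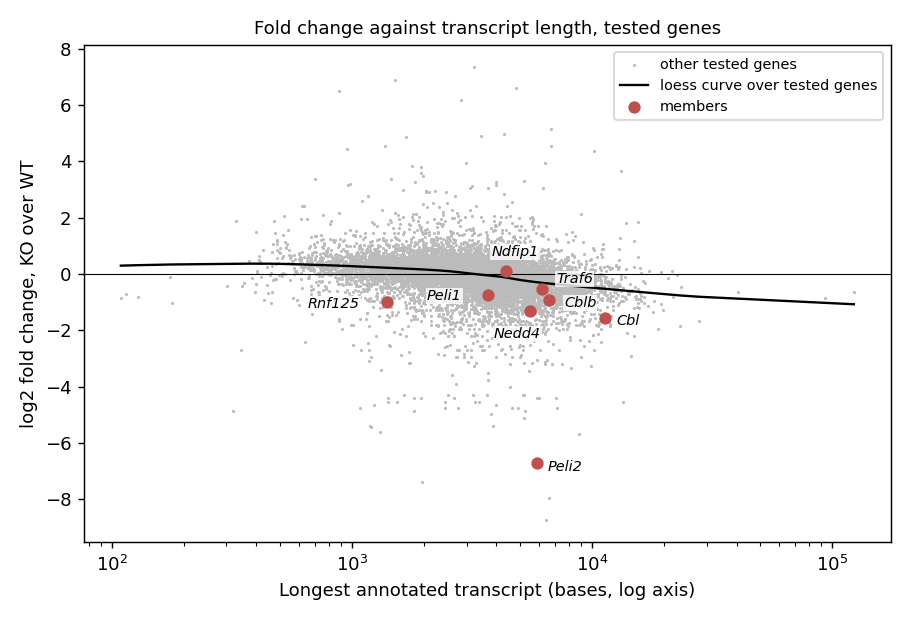
log2 fold change (KO over WT) against the longest annotated transcript (bases, log axis) for tested genes with an annotated length (grey), with the loess curve over them (line) and the 8 tested members (red). *Peli2* lies far below the curve, and *Cblb* and *Traf6* lie 0.57 and 0.22 below it.

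When a coefficient of variation of 0.2 from culture to culture was assumed (edgeR's exact test), *Peli2* and *Cbl* remained called and *Nedd4* and *Rnf125* did not, against 1.2% of all genes called lower. At 0.4, 1 member was still called, *Peli2*, against 0.0827% of all genes, and *Peli2* is the member that met the minimum of reads through the WT library alone. Requiring at least 10 reads in each library left *Cbl*, *Nedd4* and *Rnf125* called, which is 3 of 7 members against 4.12% of all genes so tested. At 1.5-fold in place of 2-fold, 6 of the 8 members were called lower, *Peli1* and *Cblb* in addition, against 11.5% of all genes. These variations are assumed and were not measured.

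The promoters of *Peli2*, *Cbl* and *Nedd4* are shown because each of these genes was called lower and because a count at the gene level does not show which start site was used. Each window runs from 250 bases before to 50 bases after a RefSeq start (GRCm38.p6), read along the gene's strand. A window was at hand for 7 of the 10 members, and *Rnf125*, also called lower, was not among them. Capitals mark the letters of a GC box (GGGCGG), a STAT element (TTCNNNGAA), an AP-1 element (TGANTCA) or a ROR half-site (AGGTCA) on either strand, and matches may overlap. *Peli2* lies at chr14:48120619-48120918 (+), *Cbl* at chr9:44233997-44234296 (-), and *Nedd4* has windows at chr9:72662081-72662380 (+) and chr9:72693048-72693347 (+).
Peli2: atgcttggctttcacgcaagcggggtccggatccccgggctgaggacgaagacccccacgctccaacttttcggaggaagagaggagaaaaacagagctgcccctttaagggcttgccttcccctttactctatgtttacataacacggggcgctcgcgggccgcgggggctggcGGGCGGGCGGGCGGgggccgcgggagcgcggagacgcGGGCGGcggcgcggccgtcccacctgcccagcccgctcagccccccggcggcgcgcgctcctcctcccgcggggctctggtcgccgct
Cbl: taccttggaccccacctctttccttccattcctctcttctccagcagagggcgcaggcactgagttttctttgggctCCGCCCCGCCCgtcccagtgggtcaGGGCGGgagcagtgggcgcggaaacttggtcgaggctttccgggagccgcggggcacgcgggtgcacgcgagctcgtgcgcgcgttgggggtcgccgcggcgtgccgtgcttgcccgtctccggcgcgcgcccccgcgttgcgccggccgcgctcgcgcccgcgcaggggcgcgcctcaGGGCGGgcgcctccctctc
Nedd4, upstream start: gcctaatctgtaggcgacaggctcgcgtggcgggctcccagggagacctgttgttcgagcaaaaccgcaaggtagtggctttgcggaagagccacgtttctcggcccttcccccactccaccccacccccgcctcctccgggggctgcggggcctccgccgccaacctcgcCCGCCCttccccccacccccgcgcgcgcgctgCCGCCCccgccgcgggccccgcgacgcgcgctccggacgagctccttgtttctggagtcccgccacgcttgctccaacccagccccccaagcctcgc
Nedd4, downstream start: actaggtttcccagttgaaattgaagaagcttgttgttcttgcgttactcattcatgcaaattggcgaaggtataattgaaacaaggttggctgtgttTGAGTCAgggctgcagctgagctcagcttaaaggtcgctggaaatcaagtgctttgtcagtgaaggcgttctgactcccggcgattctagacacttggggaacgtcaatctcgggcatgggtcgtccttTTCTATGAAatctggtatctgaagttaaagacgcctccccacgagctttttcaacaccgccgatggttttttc

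The windows of *Peli2*, *Cbl* and the upstream *Nedd4* start were rich in CpG, with 38, 43 and 35 CpG in 300 bases against a median of 7 over 32851 promoter windows. GC box letters occurred 4 times in the *Peli2* window, 4 times in that of *Cbl* and 2 times at the upstream *Nedd4* start, and 35.7% of all windows hold at least 1. They were also present in the windows of the members that were not called, with 3 at *Cblb*, 2 at *Peli1* and 2 at *Traf6*. Those windows held 17, 20 and 19 CpG, which is also above the median. The downstream *Nedd4* window held 13 CpG and 0 GC boxes, although *Nedd4* was called. The window of *Rnf128*, which was not tested, held 26 CpG and 1 GC box. STAT letters were found only in the downstream *Nedd4* window among the members' windows, once, and AP-1 letters likewise once there, against 8.30% and 7.81% of all windows. ROR half-site letters, in 16.3% of all windows, were in no window of a member. These matches describe letters in the windows and were not tested for binding.

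Beside the members, 100 other genes of the same pathways were looked up. Their list was written from general knowledge of these ligases, with earlier results of these data known. Of the 100 genes, 92 had reads and 83 were tested. Of those tested, 5 were called lower (6.02%, near the 5.53% of all genes) and 1 higher. The 83 had a median log2 fold change of -0.07. The 5 called lower were *Malt1*, *Rel*, *Tab3*, *Crk* and *Rnf43*, and the gene called higher was *Usp18*. The members' median of -0.96 lay below the medians of all 8 groups of this list, which ran from -0.62 to 0.24.

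**Figure D4:**
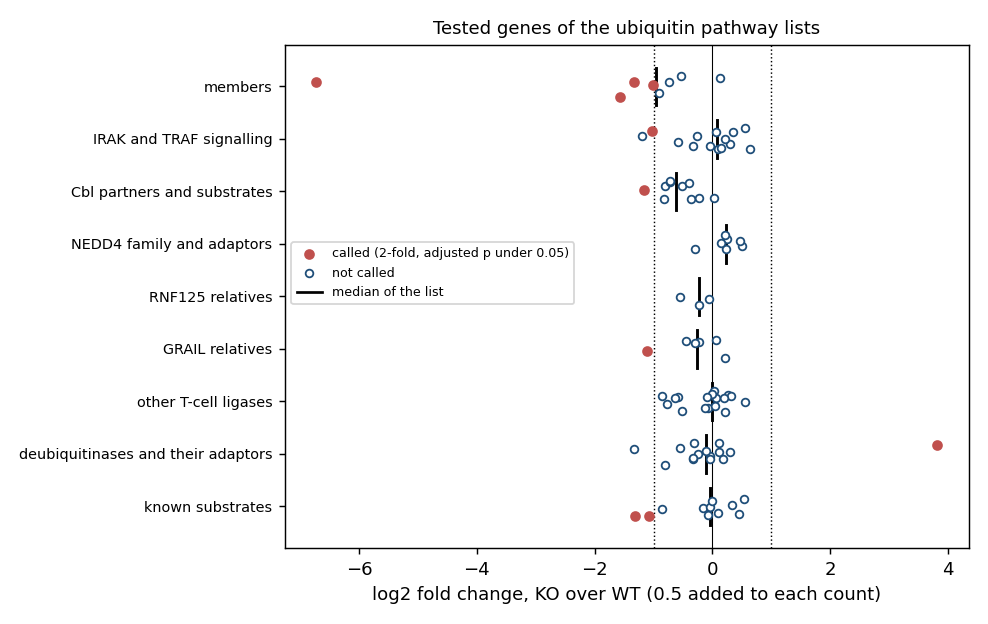
log2 fold change (KO over WT, 0.5 added to each count) of the tested members and of the tested genes of 8 other lists, with called genes filled, others open, black bars at the medians and dotted lines at 2-fold. The members' median is -0.96, that of the Cbl partners and substrates -0.62 and that of the NEDD4 family 0.24, and *Usp18* stands alone at 3.82.

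Among the proteins that these ligases act on, *Malt1*, a paracaspase that acts with BCL10 below the antigen receptor, had 4871 WT and 1830 KO reads (log2 fold change -1.31). *Rel*, which encodes the Peli1 substrate c-Rel, had 193 and 85 reads (-1.07). Neither was called after the length correction, at -0.98 and -0.69. The 2 called genes were among 11 tested of this list, whose median was -0.05, and *Junb*, an Itch substrate and the gene with the most reads per kilobase in the list, had 6920 and 6907 reads (0.10).

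In the list of Cbl partners and substrates 9 of 10 tested genes had a negative log2 fold change whose counting interval lay below 0, although *Crk* alone was called. Over all genes tested, irrespective of depth and length, 25.0% had an interval below 0. *Crk*, an adaptor protein that binds Cbl, had 51 WT and 21 KO reads (-1.16), and it was still called after the length correction (-1.04). *Zap70*, the kinase of the T-cell receptor that Cbl proteins target, had the most reads per kilobase of this list with 2985 and 2365 reads (-0.23). The median of the list was -0.62 as counted and -0.40 after the length correction, and its tested genes had a median length of 5359 bases.

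Of the IRAK and TRAF list, 14 genes were tested and 1 was called lower. *Tab3*, an adaptor of the kinase TAK1 below TRAF6, had 160 and 73 reads (-1.02), and -0.70 after the length correction, when it was not called. *Ube2v1*, a partner of the ubiquitin-conjugating enzyme that works with TRAF6, had 2743 and 2949 reads (0.21). The list's median was 0.08, and its genes lay on either side of 0, with 6 negative and 8 positive, while *Peli1*, *Peli2* and *Traf6* were all negative.

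None of the 7 tested genes of the NEDD4 family and its adaptors was called. Their median log2 fold change was 0.24, with 6 of 7 above 0, while *Nedd4* itself lay at -1.32. *Wbp2*, a WW-domain-binding protein of this list, had 838 and 1074 reads (0.46). *Ndfip2*, the paralog of *Ndfip1*, had 40 and 53 reads (0.51, interval of -0.11 to 1.14).

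The relatives of *Rnf125*, *Rnf114*, *Rnf138* and *Rnf166*, were all tested and none was called, with log2 fold changes from -0.56 to -0.06. *Rnf114* had 1421 and 1265 reads. Of the relatives of *Rnf128*, 6 were tested and 1 was called lower, *Rnf43*, a ligase that removes Wnt receptors, with 47 and 20 reads (-1.11, and -0.99 without a call after the length correction). *Rnf149* had 612 and 596 reads (0.07) and the most reads per kilobase of that list.

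Among 15 tested deubiquitinases and their adaptors 0 were called lower and 1 higher. *Usp18*, an interferon-induced protease that removes the ubiquitin-like protein ISG15, had 8 WT and 111 KO reads, which is 3.82 on the log2 scale with an interval of 2.87 to 5.15. *Otub1*, known to destabilize GRAIL, had 1125 and 1190 reads (0.19). Of 17 other T-cell ligases tested none was called, and *Rnf19b* had the most reads per kilobase with 1956 and 2270 reads (0.32).

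The neighbourhood of each called member was looked up after the values were known, as its 10 nearest tested genes. Around *Peli2*, 1 of 10 was called, *Tmem260* (280 WT and 128 KO reads, log2 fold change -1.02), and the 10 ranged from -1.02 to 0.84 over gaps of up to 824675 bases. Around *Cbl* and *Nedd4* 1 gene each was called, and both were higher, *H2afx* (1.08) and *Mns1* (1.57). Around *Rnf125* none of 10 was called, over gaps of up to 3497601 bases. The gaps reached 145231 bases at *Cbl* and 351530 bases at *Nedd4*. *Peli2* itself lay at -6.72, the lowest value of the set and one that rests on 1 KO read. Its distance from these 10 neighbours is therefore no result about the region.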

How the data were processed

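RNA-seq of in vitro Th17 cells from WT and *Trim28* KO mice was used, 1 library each, and the ChIP-seq samples of the series were not analysed here. According to the methods the authors aligned reads to mm10 with SOAP2, while the submitters' processing notes list HTSeq and Bowtie without a role. The authors deposited the raw count of uniquely assigned reads for each gene, not normalized, and the annotation used for counting and the read length are not given in the sources used here. Genes without reads are not in the deposited tables and were set to 0, and reads shared between genes may be lost at that step. The limits of 2-fold and an adjusted p under 0.05 follow the study.

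Counts were scaled to library totals with 0.5 added for log2 fold changes, and the 10881 genes with at least 10 reads were tested with an exact binomial test and Benjamini-Hochberg adjustment (SciPy 1.17.1). With 1 library per genotype no residual degrees of freedom exist, so p-values and exact 95% intervals cover counting error only, and PCR copies cannot be told from molecules. At these depths 3 reads are 0.451 CPM (WT) and 0.485 CPM (KO). Transcript lengths came from GENCODE M21, found for 99.2% of tested genes, and the loess curve (statsmodels 0.14.6) had span 0.3. Alternatives used edgeR 4.0.16 and DESeq2 1.42.0. The calculations were tested on simulated data.

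The members and gene lists were chosen with earlier results of these data known. Genes named were the members, *Trim28*, every called gene of the pathway list and the gene with the most reads per kilobase in each of its groups. *Peli3*, *Ndfip2*, *Rnf138*, *Rnf166*, *Vav1*, *Cul4b*, the cell markers and the neighbours were named in addition, after their values were seen.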

Additional observations from a re-analysis of the deposited data

How the results depend on the processing

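The number of members called lower (4) was 3 with TMM scaling, DESeq2 size factors, 5 added to each count or at least 10 reads in each library, 6 at 1.5-fold, and 4 with upper-quartile scaling, at least 1 read, the length correction, a variation of 0.1 or an adjusted p under 0.001. With edgeR's exact test it was 2 at an assumed variation of 0.2 and 1 at 0.4. Over all genes, 3.40% to 5.68% were called lower under these settings other than 1.5-fold (11.5%) and variations of 0.2 (1.20%) and 0.4 (0.0827%). No member was called higher under any of these 12 alternatives. Of 95 values for single members, 85 stayed called or stayed not called, and 8 lost a call (5 of them *Rnf125*, 2 *Nedd4*, 1 *Cbl*). The other 2 gained one at 1.5-fold (*Peli1* and *Cblb*). The read filters, assumed variations, 1.5-fold limit and stricter adjusted p leave the fold change itself as it was. Direction could thus change only under the scalings, with 5 added or with the length correction, and no member changed direction there. The filter of at least 10 reads in each library leaves out *Peli2*, so the members' median log2 fold change went from -0.96 to -0.91. With the length correction it was -0.86.

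The other pathway genes called lower (5) numbered 4 with TMM scaling, 3 with 5 added to each count, 1 with the length correction, 3, 0 and 0 at an assumed variation of 0.1, 0.2 and 0.4, 13 at 1.5-fold and 3 at an adjusted p under 0.001. Those called higher (1) numbered 0 with at least 10 reads in each library, which leaves out *Usp18*, 0 at a variation of 0.4 and 2 at 1.5-fold. Other causes of these changes were not tested. *Itch*, *Peli3* and *Rnf128* had too few reads for a test, for a reason that was not tested, and the fold change of *Peli2* rests on 1 KO read. No paired analysis was possible because each genotype has 1 library.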
